A study of Mus musculus with 8 samples.

Results

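The 36 genes described here encode chaperones and factors of the unfolded protein response: 25 that act in the endoplasmic reticulum (ER) and 11 heat shock proteins or related factors of the cytosol and mitochondria. They were taken by gene symbol from a list, with no threshold on their values, although the list was drawn up with earlier results of these data known. All 36 were present among the 55421 genes of the count table, and all 36 passed the filter on low counts that left 20477 genes for testing. The RNA came from spermatogonial stem cell (SSC) cultures, which are germ cells of C57BL/6XDBA/2 F1 mouse pups aged 6 days, expanded on irradiated mouse embryonic fibroblasts (MEFs) of CF1 mice. Cultures were kept for 2 days in 1 of 4 conditions with 2 libraries each. Veh was complete SSC medium, RA was the same medium with 100 nM retinoic acid, NR (nutrient restriction) was 10% complete medium in 90% Earle's Balanced Salt Solution (EBSS), and NRRA was that restricted medium with 100 nM retinoic acid. All 4 conditions shared the strain, the feeder layer and the time. Each value therefore stands for a bulk culture that still held feeder RNA, in which fewer cells of a type and less RNA per cell cannot be told apart. The sources call the 2 libraries of a condition independent biological replicates and state that replicates differed in mice, tissues or cells, without saying which held for these cultures, so the p-values measure the spread between these libraries.

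The ER folds secreted and membrane proteins with an Hsp70 protein (BiP, encoded by *Hspa5*), an Hsp90 protein (GRP94, encoded by *Hsp90b1*), the lectin chaperones calnexin and calreticulin, and disulfide isomerases. When unfolded proteins accumulate, the sensors IRE1 (*Ern1*), ATF6 and PERK start the unfolded protein response, in which IRE1 splices *Xbp1* mRNA and the resulting factor, together with ATF6, raises transcription of ER chaperones and of the ER-associated degradation (ERAD) machinery. The cytosol and mitochondria have their own chaperones, many of which are induced by heat shock factor 1 (*Hsf1*). Retinoic acid starts spermatogonial differentiation in the testis, and the study combined it with nutrient restriction to ask whether the pair starts meiosis in culture.

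Promoter sequence was examined because the ER stress response element, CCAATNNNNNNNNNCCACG, is the classical site through which ATF6 and XBP1 act on several of these genes. RefSeq windows from 250 bases before to 50 bases after the transcript start (GRCm38.p6, the build the submitters name as mm10) existed for 28 of the 36 genes and were searched on both strands. The element was found in 9 of those 28 genes (32.1%), against 37 of 27025 genes with a window (0.137%). All 9 encode ER proteins: *Hspa5*, *Hsp90b1* with 2 matches, *Dnajc3*, *Creld2*, *Calr*, *Canx*, *Pdia6*, *Syvn1* and *Derl3*. The sites of *Hspa5*, *Hsp90b1*, *Dnajc3*, *Pdia6*, *Calr* and *Derl3* are printed below, each written 5′ to 3′ on the strand of its gene with 5 flanking bases on each side. Those of *Creld2*, *Canx* and *Syvn1* are not printed, and the choice of sites is not a result. Capitals mark the outer letters of the element, read as CCAAT and CCACG or, in the reverse orientation, as CGTGG and ATTGG.

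Hspa5, chr2:34772020-34772048, plus strand, element at -65 to -47 from the start: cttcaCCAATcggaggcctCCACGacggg
Hsp90b1 distal, chr10:86705633-86705661, minus strand, -212 to -194: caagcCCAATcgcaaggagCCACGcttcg
Hsp90b1 proximal, chr10:86705528-86705556, minus strand, -107 to -89: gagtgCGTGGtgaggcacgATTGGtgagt
Dnajc3, chr14:118937822-118937850, plus strand, -105 to -87: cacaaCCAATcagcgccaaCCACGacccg
Pdia6, chr12:17266486-17266514, plus strand, -98 to -80: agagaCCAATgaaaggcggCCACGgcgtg
Calr, chr8:84847070-84847098, minus strand, -162 to -144: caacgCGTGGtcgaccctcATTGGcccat
Derl3, chr10:75893237-75893265, plus strand, -156 to -138: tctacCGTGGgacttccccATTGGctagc

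The *Hspa5* site lay inside an exon of a longer *Hspa5* transcript in the GENCODE M21 annotation, and the other 6 lay outside annotated genes. *Herpud1* held instead the short second form of the element, ATTGGNCCACG, within an intron of the overlapping gene *Gm15890*. That order of letters was searched after the planned order, CCAATNCCACG, had been found in 0 of the 28 genes (13 of 27025 genes, 0.048%). The reversed first block was found in 2 of the 28, *Herpud1* and *Dnajb11*, and in 12 of 27025 genes (0.044%). The heat shock element, written as GAANNTTCNNGAA or TTCNNGAANNTTC, was found in 3 of the 28 (*Hspd1*, *Hspe1* and *Hsph1*) and in 179 of 27025 (0.662%). *Hspd1* and *Hspe1* encode the 2 proteins of the mitochondrial chaperonin and are transcribed in opposite directions from a common promoter, so the next lines show the same bases read from each side, with the capitals marking 2 overlapping heat shock elements. In the GENCODE M21 annotation these bases lay inside an exon of *Hspd1*. They also lay downstream of the start of another *Hspd1* window, so their position before the start holds for only 1 *Hspd1* start.

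Herpud1, chr8:94386372-94386392, plus strand, -52 to -42: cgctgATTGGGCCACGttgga
Hspd1, chr1:55088054-55088081, minus strand, -144 to -127: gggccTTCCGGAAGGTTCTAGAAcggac
Hspe1, chr1:55088054-55088081, plus strand, -89 to -72: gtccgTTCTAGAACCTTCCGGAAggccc

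The unfolded protein response element TGACGTGG was found in 0 of the 28 genes with a window (193 of 27025 genes, 0.714%). The amino acid response core TGATGNAA was found in 1, that of *Herpud1* (1219 of 27025, 4.51%). CCAAT alone, which is part of the ER stress response element, stood in 24 of 28 (11096 of 27025, 41.1%). These matches describe the letters of the windows and were not set against any binding data.

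The 8 libraries held 19261333 to 30023585 counts, of which the 36 genes took 1.11% to 1.26%. The spread between libraries of a condition was small, with a common biological coefficient of variation of 3.35%. Levels are given as counts-per-million values (CPM) on library sizes scaled by the trimmed mean of M values (TMM). Germ cell markers such as *Ddx4* and *Dazl* (6 genes) were present in every library. They summed to 818 and 863 CPM with Veh, 967 and 1027.5 after RA, 1007 and 985 under NR, and 1132 and 1157 under NRRA. Against Veh, 4 of the 6 were called higher and 1 lower in RA, 5 higher and 0 lower in NR, and 5 higher and 1 lower in NRRA. The 10 markers of undifferentiated spermatogonia summed to 950.1 and 881 CPM with Veh, 781 and 801 under NR, 340.1 and 333 after RA and 158 in each NRRA library, while the 6 markers of differentiating spermatogonia summed to 243 to 263 without retinoic acid and to 1179 to 1687 with it. The sums hide changes under NR. Against Veh, 4 of these 6 were called higher and 1 lower in NR, with 3 past 2-fold and a median log2 fold change of 0.79. Of the 10 undifferentiated markers, 3 were called higher and 5 lower in NR, with 2 past 2-fold. In RA and in NRRA, 0 of those 10 were called higher and 9 lower than in Veh. The 13 fibroblast markers, all above 1 CPM in at least 1 library, summed to 13107 and 13317 CPM with Veh, 10729 and 9925 after RA, 26133 and 27414 under NR, and 23028 and 22463 under NRRA. Of these 13 markers, 12 were called higher and 0 lower in NR than in Veh, and 1 was called higher and 9 lower in RA than in Veh. In NRRA, 10 were called higher and 3 lower than in Veh, and 0 were called higher and 11 lower than in NR. Fibroblast and germ cell signals thus both moved with the treatments, and their part in the differences below was not tested. Sertoli cell markers summed to 42.6 and 40.3 CPM with Veh, 26.5 and 27.6 after RA, 44.9 and 48.6 under NR and 15.3 and 14.8 under NRRA. Of these 8 markers 4 were under 1 CPM in all libraries, and *Fshr* was at no more than 3 counts. Leydig cell markers summed to 5.80 to 15.1 CPM, with 5 of 6 under 1 CPM and *Lhcgr* at no more than 3 counts. The 6 macrophage markers summed to 263 and 262 CPM with Veh, 231 and 209 after RA, 299 and 299 under NR and 277 and 290 under NRRA.

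Per kilobase of exon, which is the scale on which genes can be compared, the cytosolic chaperones led in Veh. *Hsp90ab1*, the constitutive cytosolic Hsp90, was first with 979 CPM per kb, and the constitutive Hsp70 *Hspa8* was second with 389. The ER lectin chaperone *Calr* followed with 361, then the disulfide isomerases *Pdia3* with 283 and *P4hb* with 280. The sensors were far lower, at 8.61 CPM per kb for *Ern1* and 5.79 for *Atf6*. The heat-inducible *Hspa1a* was last with 1.49, after *Derl3* with 2.22. Reads of some members can be shared with other genes: 56.3% of the read-length windows in *Hspa1a* transcripts also occur elsewhere, chiefly in *Hspa1b* (49.7% of whose windows are shared), and *Hspb1* shares 43.9%, *Hsp90aa1* 37.8%, *Hspa8* 28.4% and *Hspd1* 23.6%, mostly with pseudogenes. The values of these 6 genes are uncertain to that extent. The strand setting of the counting is not known here, so exons that overlap a gene on the opposite strand add to this. Such overlap covered 19.01% of the *Hspa1a* exons (*Gm20481*), 10.3% of *Hsp90b1* (*1810014B01Rik*), 7.60% of *Hspe1* (*Hspd1*), 4.71% of *Manf* (*4930524O07Rik*), 4.24% of *Hspd1* (*Hspe1*) and at most 2.87% of any other member.

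**Figure D1:**
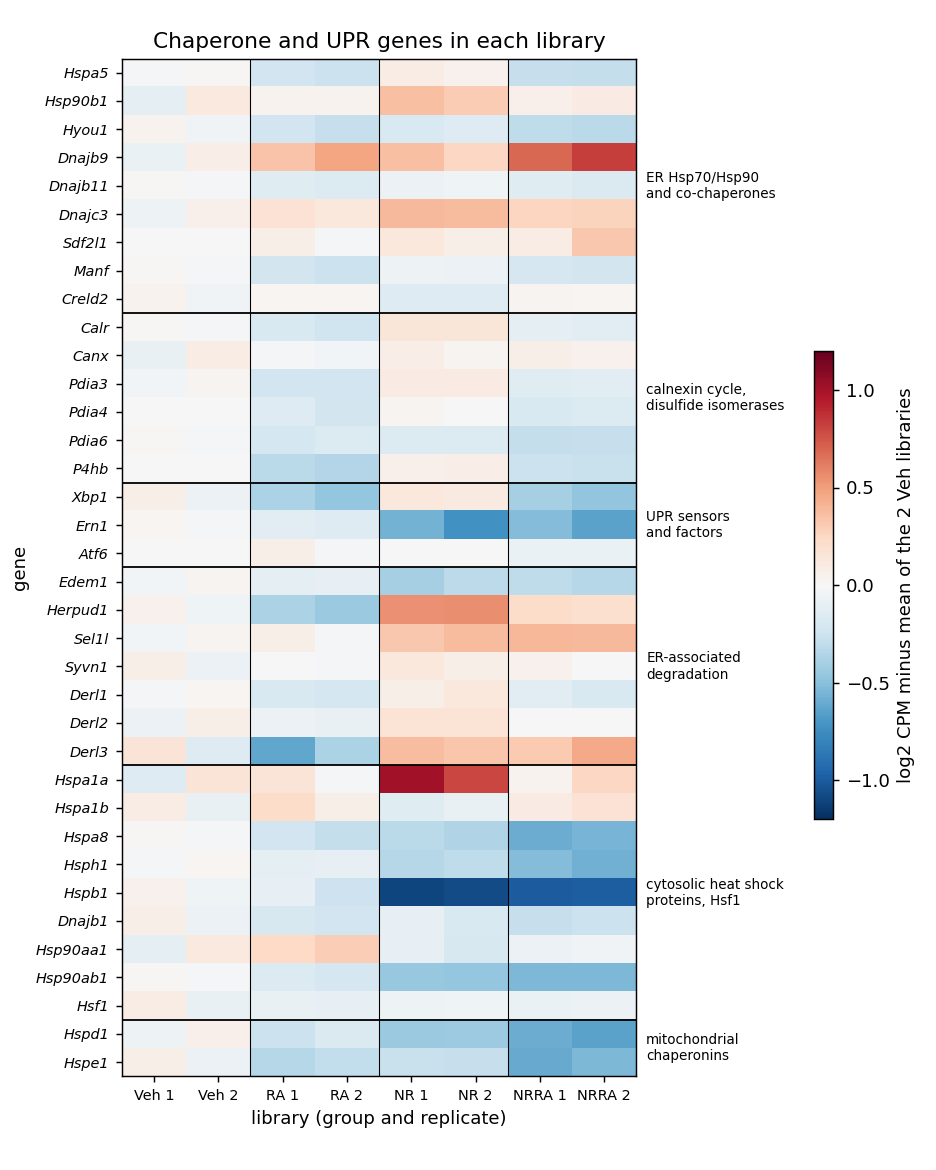
Heatmap of the 36 genes (rows, grouped by role) in the 8 libraries (columns), coloured by the log2 difference from the mean of the 2 Veh libraries. *Hspb1* is the deepest blue row, with 54.6 and 50.8 CPM with Veh against 24.6 and 24.96 under NR, and the rows of *Hspd1* and *Hspe1* are lowest in NRRA.

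With retinoic acid in complete medium, 19 of the 36 genes were lower and 3 higher than in Veh, with 14 not called (edgeR quasi-likelihood test, Benjamini-Hochberg adjusted p under 0.05 over all tested genes). Among all genes 23.4% were called lower and 19.8% higher in this comparison, and 7.49% were called with at least a 2-fold difference, a size that 0 of the 36 reached. These shares of all genes, here and below, were not matched to the expression levels of the members. The median log2 fold change of the members was -0.17, against -0.019 for all genes. When libraries were scaled by their totals alone the count became 5 higher and 12 lower, and the median of all genes moved to 0.083. That scaling moved the all-gene median of NRRA against Veh to 0.14, from 0.030, and the share of higher calls among all called genes from 45.8% to 64.6% in RA and from 51.2% to 63.1% in NRRA, so directions here are relative to the bulk of genes under TMM.

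Nutrient restriction alone moved members both ways: 9 of 36 were higher and 13 lower than in Veh, with 14 not called. The background was 21.7% of genes higher, 22.2% lower and 8.29% past 2-fold, and 1 member, *Hspb1*, passed 2-fold. Of the 25 ER genes 8 were higher and 5 lower (median log2 fold change 0.097), whereas of the 11 cytosolic and mitochondrial genes 1 was higher and 8 lower (median -0.27). The median of all 36 was 0.0099, near the 0.0057 of all genes. Scaled by totals alone, NR had 14 higher and 11 lower members.

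With the combined treatment 20 members were lower and 5 higher than in Veh, with 11 not called. Here 28.7% of all genes were lower, 30.1% higher and 15.9% past 2-fold, and 0 members passed 2-fold. The median of the members was -0.15 and that of all genes 0.030, and with libraries scaled by totals alone the counts were 11 higher and 14 lower. The 3 comparisons with Veh share the Veh libraries, so calls common to them are not counted as a result. *Sdf2l1*, *Canx*, *Atf6*, *Syvn1*, *Hspa1b* and *Hsf1* were called in none of the 3, although each was called in at least 1 of them under another processing.

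**Figure D2:**
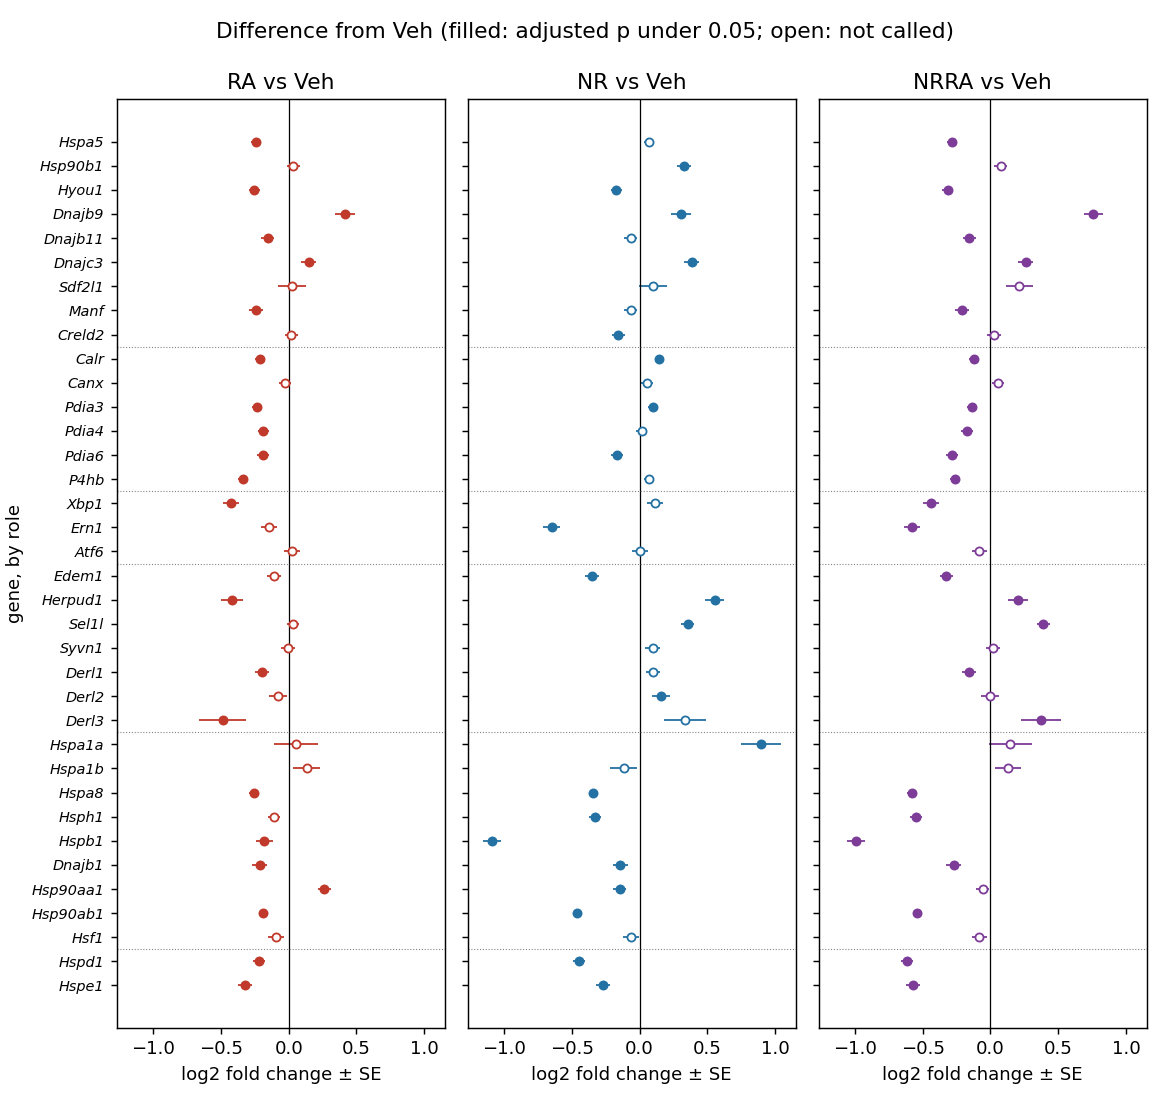
Log2 fold change from Veh (horizontal axis) with its standard error for the 36 genes (rows) in RA, NR and NRRA (panels), with filled points for adjusted p under 0.05 and open points for genes not called. Points fall mostly left of 0 for RA and NRRA (19 and 20 genes called lower) and on both sides for NR (9 higher and 13 lower).

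The ER Hsp70 and Hsp90 system held genes that moved in opposite directions. *Hspa5*, the central ER Hsp70, stood at 538 and 552 CPM with Veh, 464 and 457 after RA, 578 and 565 under NR and 449 and 447 under NRRA. All 4 libraries with retinoic acid lay below all 4 without it. *Hspa5* fell by 0.24 on the log2 scale in RA (SE 0.038, adjusted p = 7.60e-06) and by 0.28 in NRRA (SE 0.037, adjusted p = 3.53e-07), while NR differed from Veh by 0.069 (adjusted p = 0.141). *Hyou1*, its nucleotide exchange factor, stood at 484 and 459 CPM with Veh and was below both Veh libraries in RA (401 and 389.6), NR (415 and 422) and NRRA (381 and 377). Its log2 fold changes were -0.25 ± 0.040 (SE, adjusted p = 9.52e-06) after RA, -0.17 ± 0.040 (SE, adjusted p = 0.000968) under NR and -0.31 ± 0.040 (SE, adjusted p = 1.43e-07) under NRRA. *Dnajb9* (ERdj4), a J-domain co-chaperone of BiP that also restrains IRE1, moved the other way. It stood at 30.6 and 34.4 CPM with Veh, 41.1 and 45.2 after RA, 41.8 and 38.6 under NR and 52.2 and 57.6 under NRRA, so that every treated library exceeded both Veh libraries. Its log2 fold change was 0.42 ± 0.074 (SE, adjusted p = 5.33e-05) after RA, 0.30 ± 0.075 (SE, adjusted p = 0.00166) under NR and 0.76 ± 0.071 (SE, adjusted p = 7.88e-10) under NRRA, the highest of the 36 genes in RA and in NRRA. The calls in RA and NR were lost when trends with GC content and length were removed, where the values were 0.14 (adjusted p = 0.063) and 0.11 (adjusted p = 0.151).

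*Hsp90b1*, the ER Hsp90, and *Dnajc3* (p58IPK), a co-chaperone of BiP, were highest in NR. *Hsp90b1* stood at 582 and 685 CPM with Veh, 649.9 and 648 after RA, 814 and 779 under NR and 659 and 676 under NRRA, and its 2 Veh libraries were further apart than those of any other condition. Its log2 fold change was 0.33 ± 0.050 (SE, adjusted p = 4.62e-06) under NR, and the values in RA (0.035, adjusted p = 0.609) and NRRA (0.075, adjusted p = 0.199) did not pass the test. With GC and length trends removed both of those values turned to -0.16 and were called lower (adjusted p = 7.12e-05 and 3.59e-05). *Dnajc3* stood at 68.04 and 73.98 CPM with Veh, 79.8 and 77.6 after RA, 92.98 and 92.4 under NR and 84.6 and 85.3 under NRRA. Its log2 fold changes were 0.15 ± 0.054 (SE, adjusted p = 0.0292) after RA, 0.38 ± 0.054 (SE, adjusted p = 1.46e-06) under NR and 0.26 ± 0.053 (SE, adjusted p = 0.000147) under NRRA, and without the GC and length trends they were -0.0067 in RA and 0.068 in NRRA, not called. The call of *Dnajc3* in RA was also lost without Veh library 1 (adjusted p = 0.119), without either RA library (0.148 and 0.0688) and without NRRA library 2 (0.0504). Of the remaining members of this system, *Dnajb11* (ERdj3) and *Manf*, a protein secreted under ER stress, were lower in RA (log2 fold changes -0.16 and -0.24) and NRRA (-0.16 and -0.21). *Dnajb11* lost both calls under total-count scaling (adjusted p = 0.365 and 0.432), and that in RA also with only the groups compared (0.0937). Leaving out RA library 2 lost its call in RA, and leaving out NRRA library 2 lost that in NRRA. *Manf* kept its call in RA in each alternative, but lost that in NRRA under total-count scaling (adjusted p = 0.0825). *Creld2*, an ER-stress-inducible secretory protein, was called in NR alone of the 3 comparisons with Veh, at -0.16 ± 0.051 (SE, adjusted p = 0.0148) on the log2 scale, and that call was lost without Veh library 1 (adjusted p = 0.161) or either NR library (0.136 and 0.123). *Sdf2l1* ranged from 12.3 to 15.5 CPM and was not called, although it passed as higher in NRRA under upper quartile scaling (0.25, adjusted p = 0.0330), total-count scaling (0.33, 0.00627) and removal of GC and length trends (0.36, 0.00127), and without NRRA library 1 (0.32, 0.0179). Of the 9 genes of this group, 2 were higher and 4 lower in RA (19.8% and 23.4% of all genes). In NR 3 were higher and 2 lower (21.7% and 22.2% of all genes), and in NRRA 2 were higher and 4 lower (30.1% and 28.7%). Their medians (0.020, 0.069 and 0.028) stayed close to 0.

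The calnexin cycle and the disulfide isomerases behaved more evenly, with 5 of 6 genes lower in RA and 5 of 6 lower in NRRA (23.4% and 28.7% of all genes). *P4hb*, the classical protein disulfide isomerase and also a subunit of the collagen prolyl hydroxylase, stood at 798 and 806 CPM with Veh, 641 and 627 after RA, 834 and 844 under NR and 669 and 666 under NRRA. The 4 libraries with retinoic acid all lay below the 4 without it. *P4hb* fell by 0.34 on the log2 scale in RA (SE 0.036, adjusted p = 2.08e-08) and by 0.26 in NRRA (SE 0.036, adjusted p = 4.61e-07), with 0.067 under NR (adjusted p = 0.135). *Calr*, the soluble lectin chaperone, stood at 1049 and 1032 CPM with Veh, 918 and 879.8 after RA, 1152 and 1149.7 under NR and 961 and 955 under NRRA, with no overlap between any 2 groups. Its log2 fold changes were -0.21 ± 0.035 (SE, adjusted p = 2.51e-05) after RA, 0.15 ± 0.035 (SE, adjusted p = 0.00137) under NR and -0.12 ± 0.035 (SE, adjusted p = 0.00535) under NRRA. *Pdia3* (ERp57), which acts on the clients of calreticulin and calnexin, stood at 868 and 907 CPM with Veh, 756 and 756 after RA, 951 and 948 under NR and 803 and 813 under NRRA, the same order of groups. The corresponding log2 fold changes were -0.23 ± 0.036 (SE, adjusted p = 9.02e-06), 0.098 ± 0.036 (SE, adjusted p = 0.0288) and -0.13 ± 0.036 (SE, adjusted p = 0.00217). The rise of *Pdia3* in NR was lost with DESeq2 (adjusted p = 0.0578), without either NR library (0.0606 and 0.0581) and without NRRA library 2 (0.0509). The log2 fold changes of *Pdia4* were -0.19 ± 0.042 (SE, adjusted p = 0.000715) after RA and -0.17 ± 0.042 (SE, adjusted p = 0.000948) under NRRA. Those of *Pdia6* were -0.19 ± 0.042 (SE, adjusted p = 0.000659) after RA, -0.16 ± 0.042 (SE, adjusted p = 0.00228) under NR and -0.28 ± 0.042 (SE, adjusted p = 1.88e-06) under NRRA, although its call in NR was lost without NR library 1 (adjusted p = 0.0550). *Canx*, the membrane-bound lectin chaperone, ranged from 539.6 to 609.8 CPM and was not called in any comparison, but its direction depended on the processing. In NRRA it was called at 0.17 on the log2 scale under total-count scaling (adjusted p = 0.00150) and at -0.18 with GC and length trends removed (4.60e-06), where it was also called at -0.22 in RA (2.25e-07) and -0.078 in NR (0.0346). Without Veh library 2 it was called at 0.16 in NR (adjusted p = 0.000317) and 0.15 in NRRA (0.000346), and without Veh library 1 at -0.090 in RA (0.0353). Under total-count scaling the NRRA calls of *Calr*, *Pdia3* and *Pdia4* and the RA calls of *Pdia4* and *Pdia6* were lost, with no change of sign. The summed CPM of the 6 genes was 3729 and 3825 in Veh, 3300.1 and 3236 after RA, 3997 and 3976 under NR, and 3437 and 3435 under NRRA. The fibroblast marker sum given above was lower after RA and higher under NR than with Veh, and under NRRA it was above Veh and below NR. Its part in the values of these 6 genes was not tested.

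**Figure D3:**
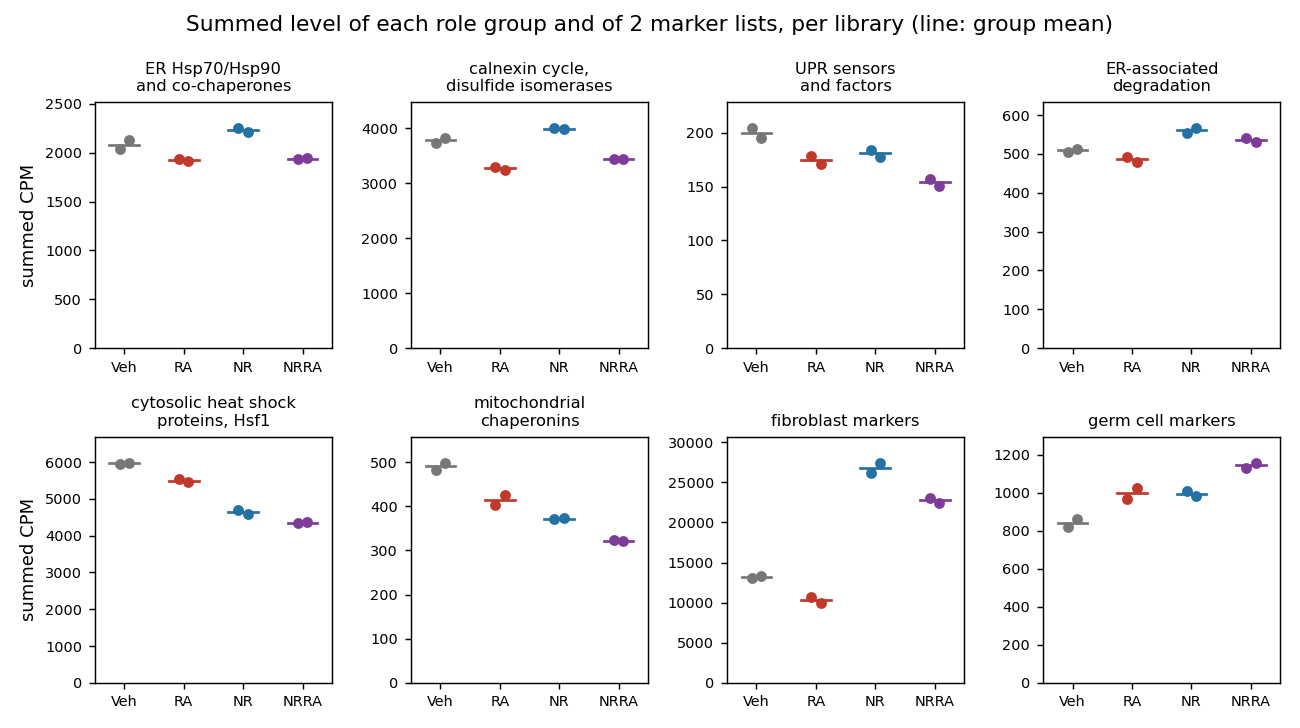
Summed CPM (vertical axes, each panel with its own scale) of each role group and of the germ cell and fibroblast marker lists in every library, with a line at each group mean. The calnexin and isomerase sum is highest in NR (3997 and 3976) and lower in RA and NRRA than in Veh, the cytosolic sum is lower in NR and NRRA than in Veh, and the fibroblast sum is 22463 or more in every NR and NRRA library.

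Of the sensors and factors of the unfolded protein response, *Xbp1* was lower wherever retinoic acid was present and *Ern1* wherever nutrients were restricted. *Xbp1* stood at 79.4 and 72.4 CPM with Veh, 58.3 and 54.9 after RA, 82.8 and 81.5 under NR and 57.5 and 54.7 under NRRA. The RA and NRRA libraries overlapped one another and lay below all libraries without retinoic acid. *Xbp1* fell by 0.43 on the log2 scale in RA (SE 0.059, adjusted p = 1.42e-06) and by 0.44 in NRRA (SE 0.058, adjusted p = 3.14e-07), and NRRA was lower than NR by 0.55 (SE 0.056, adjusted p = 8.74e-09). Gene counts do not separate spliced from unspliced *Xbp1* mRNA, so these values say nothing of IRE1 activity. *Ern1*, which encodes that sensor, stood at 71.4 and 69.5 CPM with Veh, 64.1 and 63.2 after RA, 47.6 and 42.5 under NR and 49.03 and 45.2 under NRRA. The NR and NRRA libraries overlapped one another and lay below the rest. *Ern1* fell by 0.65 on the log2 scale in NR (SE 0.063, adjusted p = 2.70e-09) and by 0.58 in NRRA (SE 0.061, adjusted p = 6.00e-09), while its -0.15 in RA missed the threshold (adjusted p = 0.0523). *Atf6* ranged from 50.6 to 56.2 CPM and was not called in any comparison, but with GC and length trends removed it was called at -0.21 in NRRA against Veh (adjusted p = 0.000569).

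Among the ERAD genes *Herpud1* and *Sel1l* were higher under nutrient restriction and *Edem1* was lower. *Herpud1*, an ER membrane protein that recruits the degradation machinery, stood at 23.1 and 21.6 CPM with Veh, 17.1 and 16.4 after RA, 32.7 and 32.9 under NR and 25.98 and 25.5 under NRRA, with no overlap between any 2 groups. It fell by 0.42 on the log2 scale in RA (SE 0.080, adjusted p = 0.000118) and rose by 0.55 in NR (SE 0.073, adjusted p = 5.56e-07). In NRRA it was 0.20 ± 0.073 (SE, adjusted p = 0.0190) from Veh, a call that was lost with DESeq2 (adjusted p = 0.129), without Veh library 2 (0.126) and without either NRRA library (0.0933 and 0.0562). *Sel1l*, the adaptor of the HRD1 ubiquitin ligase, stood at 158 and 166 CPM with Veh, 171 and 161 after RA, 203 and 211 under NR and 213 and 212 under NRRA. The NR and NRRA libraries were all above the Veh and RA libraries, with log2 fold changes of 0.36 ± 0.046 (SE, adjusted p = 4.20e-07) under NR and 0.39 ± 0.045 (SE, adjusted p = 3.51e-08) under NRRA. *Syvn1*, which encodes the HRD1 ligase itself, ranged from 93.5 to 107 CPM and was not called, but with GC and length trends removed it was called higher in RA (0.13, adjusted p = 0.0145), NR (0.17, 0.00120) and NRRA (0.14, 0.00409). It was also called higher in NR without Veh library 1 (0.19, adjusted p = 0.00407). *Edem1*, a lectin that passes misfolded glycoproteins to degradation, went the other way, with 102 and 107 CPM with Veh, 78.97 and 83.9 under NR and 84.4 and 81.9 under NRRA. Its log2 fold changes were -0.35 ± 0.052 (SE, adjusted p = 3.33e-06) under NR and -0.32 ± 0.051 (SE, adjusted p = 4.70e-06) under NRRA.

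The derlins, which are thought to form part of the channel through which ERAD substrates leave the ER, did not move as a set. *Derl1* had log2 fold changes of -0.19 ± 0.053 (SE, adjusted p = 0.00384) after RA and -0.16 ± 0.052 (SE, adjusted p = 0.0117) under NRRA. Both calls were lost under total-count scaling (adjusted p = 0.154 and 0.490), and that under NRRA also without NRRA library 2. *Derl2* was higher in NR at 0.16 ± 0.065 (SE, adjusted p = 0.0486) on the log2 scale, a call lost under 13 of the 16 alternatives run for it, among them the removal of any library but Veh 2. *Derl3* was thinly covered, with 56 to 188 counts a library. It stood at 4.90 and 3.96 CPM with Veh, 2.85 and 3.39 after RA, 5.68 and 5.54 under NR and 5.46 and 6.03 under NRRA, and NRRA exceeded RA by a log2 difference of 0.86 ± 0.15 (SE, adjusted p = 4.71e-05), a call kept in each alternative. Its log2 fold change after RA, -0.49 ± 0.17 (SE, adjusted p = 0.0247), lost its call in 6 of the 16 alternatives, among them without Veh library 1 (adjusted p = 0.314) or RA library 1 (0.126). That under NRRA, 0.37 ± 0.15 (SE, adjusted p = 0.0337), lost it in 4, among them without Veh library 2 (0.291) or NRRA library 2 (0.188). In all, 0 of the 7 ERAD genes were higher and 3 lower in RA (19.8% and 23.4% of all genes). In NR 3 were higher and 1 lower (21.7% and 22.2% of all genes), and in NRRA 3 were higher and 2 lower (30.1% and 28.7%).

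**Figure D4:**
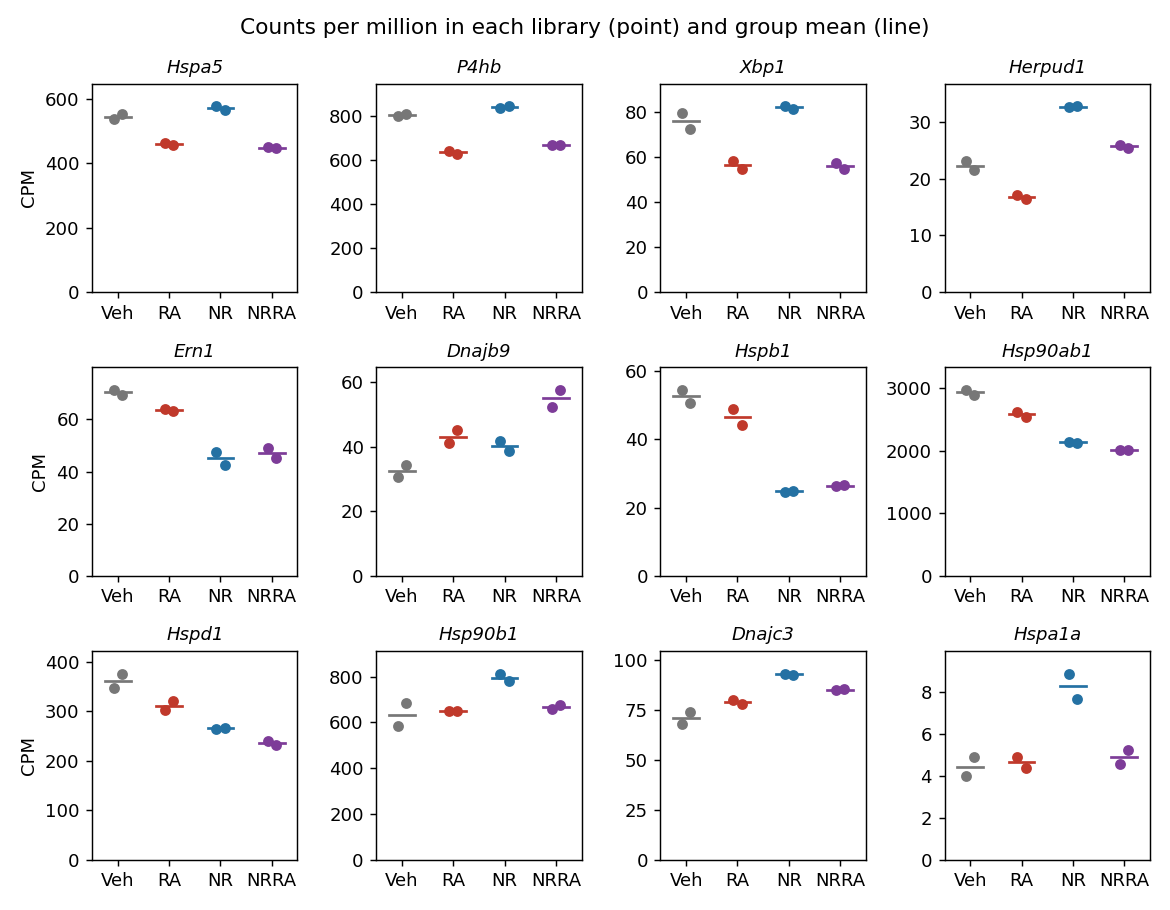
CPM in each library (points) with a line at each group mean for members named in the text, 1 panel a gene with its own vertical scale. *Xbp1* and *P4hb* are low in RA and NRRA, *Ern1* and *Hspb1* are low in NR and NRRA, and *Dnajb9* is highest in NRRA (52.2 and 57.6 CPM).

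In the cytosolic group 1 of 9 genes was higher and 6 were lower in NR (21.7% and 22.2% of all genes). In NRRA 0 were higher and 5 lower (30.1% and 28.7% of all genes), against 1 higher and 4 lower in RA (19.8% and 23.4%). *Hspb1* (HSP27), a small heat shock protein that holds unfolded proteins, stood at 54.6 and 50.8 CPM with Veh, 49.1 and 44.3 after RA, 24.6 and 24.96 under NR and 26.3 and 26.6 under NRRA. The 4 restricted libraries all lay far below the 4 in complete medium. The log2 fold change was -1.09 ± 0.069 (SE, adjusted p = 6.75e-13) under NR and -0.99 ± 0.066 (SE, adjusted p = 9.48e-13) under NRRA. Its smaller value in RA, -0.18 ± 0.063 (SE, adjusted p = 0.0234), lost its call in 9 of the 16 alternatives, among them without Veh library 1 (adjusted p = 0.246), RA library 2 (0.353) or either NR library (0.0642 and 0.0654). *Hsp90ab1* stood at 2973 and 2898 CPM with Veh, 2613 and 2544 after RA, 2145 and 2129 under NR and 2016 and 2016 under NRRA, so that the groups descended in that order without overlap. Its log2 fold changes were -0.19 ± 0.032 (SE, adjusted p = 3.71e-05), -0.46 ± 0.032 (SE, adjusted p = 6.79e-12) and -0.54 ± 0.032 (SE, adjusted p = 1.10e-13). *Hspa8* also descended without overlap, from 1695 and 1655 CPM with Veh through 1425 and 1376 after RA and 1342 and 1305 under NR to 1108 and 1135 under NRRA. In the same order, the log2 fold changes from Veh were -0.26 ± 0.035 (SE, adjusted p = 1.20e-06), -0.34 ± 0.035 (SE, adjusted p = 9.71e-09) and -0.58 ± 0.035 (SE, adjusted p = 1.46e-13). *Hsph1* (HSP110), the nucleotide exchange factor of cytosolic Hsp70, fell by 0.33 in NR and 0.55 in NRRA on the log2 scale (adjusted p = 1.35e-06 and 6.02e-11).

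Of the heat-inducible forms, *Hspa1a* was higher under NR and *Hsp90aa1* after RA. *Hspa1a*, a heat-inducible Hsp70, stood at 3.96 and 4.89 CPM with Veh, 4.89 and 4.36 after RA, 8.86 and 7.66 under NR and 4.53 and 5.23 under NRRA, with 80 to 202 counts a library. Its log2 fold change was 0.89 ± 0.15 (SE, adjusted p = 1.93e-05) under NR, and its level was within the Veh and RA range in 1 of the 2 NRRA libraries and above it in the other. *Hspa1b*, its near-identical neighbour, ranged from 11.4 to 14.7 CPM with no call against Veh, but with GC and length trends removed it was called higher in RA (0.27, adjusted p = 0.0195) and NRRA (0.24, 0.0229). In NRRA against NR, *Hspa1b* was called higher and *Hspa1a* lower. That *Hspa1b* call was lost with DESeq2 (adjusted p = 0.193) and with RLE scaling (0.0526). The windows shared by the pair leave the split of reads between them uncertain. *Hsp90aa1*, the inducible cytosolic Hsp90, stood at 868 and 1019 CPM with Veh, 1109 and 1155 after RA, 878 and 826 under NR and 899 and 913 under NRRA. Its log2 fold change was 0.26 ± 0.050 (SE, adjusted p = 0.000102) after RA, a call kept in each alternative. Its value of -0.15 ± 0.050 (SE, adjusted p = 0.0179) under NR lost its call in 5 alternatives, among them without NR library 2 (adjusted p = 0.318) and without Veh library 2, where the value was -0.015 (adjusted p = 0.775). *Dnajb1* (HSP40), a J-domain partner of Hsp70, had log2 fold changes of -0.21 ± 0.056 (SE, adjusted p = 0.00306) after RA, -0.14 ± 0.056 (SE, adjusted p = 0.0400) under NR and -0.27 ± 0.055 (SE, adjusted p = 0.000160) under NRRA. Its call in NR was lost in 11 of the 16 alternatives, leaving out any NR or NRRA library or Veh library 1 among them, and its call in RA was lost without Veh library 1 (adjusted p = 0.106). *Hsf1* ranged from 63.8 to 72.4 CPM and was not called, but without Veh library 2 it was called at -0.16 in RA (adjusted p = 0.0200) and -0.165 in NRRA (0.0107).

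The mitochondrial chaperonin genes *Hspd1* (HSP60) and *Hspe1* (HSP10), whose common promoter is printed above, were lower in each treated group than in Veh and lower in NRRA than in RA or NR. *Hspd1* stood at 348 and 376 CPM with Veh, 302 and 321 after RA, 265 and 267 under NR and 239 and 232 under NRRA. *Hspe1* stood at 134 and 122 CPM with Veh, 101.1 and 104 after RA, 107 and 106 under NR and 84.2 and 88.1 under NRRA. For both genes every treated library was below both Veh libraries and the NRRA libraries were the lowest. The log2 fold changes of *Hspd1* were -0.22 ± 0.044 (SE, adjusted p = 0.000274) after RA, -0.45 ± 0.045 (SE, adjusted p = 5.52e-09) under NR and -0.62 ± 0.044 (SE, adjusted p = 4.50e-12) under NRRA. Those of *Hspe1* were -0.32 ± 0.052 (SE, adjusted p = 1.71e-05), -0.27 ± 0.052 (SE, adjusted p = 0.000128) and -0.57 ± 0.052 (SE, adjusted p = 4.86e-10). All 6 calls were kept in each alternative.

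Whether retinoic acid acted alike in the 2 media was examined with comparisons that share no libraries: RA against Veh in complete medium and NRRA against NR in restricted medium. Against NR, NRRA had 20 members lower and 3 higher (22.1% and 21.3% of all genes, and 8.7% past 2-fold with 0 of the members), with a median log2 fold change of -0.13. Scaling by totals alone gave 13 lower and 6 higher, and the count was also 13 lower without NRRA library 2. Of the 22 members called in complete medium and the 23 called in restricted medium, 15 were lower in both, *Dnajb9* was higher in both and *Dnajc3* was higher in the first and lower in the second. Of all genes 15.3% were lower in both, 12.6% higher in both and 1.2% called in opposite directions. The 15 were *Hspa5*, *Hyou1*, *Manf*, *Calr*, *Pdia3*, *Pdia4*, *Pdia6*, *P4hb*, *Xbp1*, *Herpud1*, *Derl1*, *Hspa8*, *Hsp90ab1*, *Hspd1* and *Hspe1*, which make up 15 of the 19 lower in complete medium and 15 of the 20 lower in restricted medium. Of the 15, *Hyou1*, *Manf*, *Pdia6*, *Hsp90ab1* and *Hspd1* lost their call in restricted medium without NRRA library 2 (adjusted p = 0.0511 to 0.147). *Manf*, *Pdia6* and *Hsp90ab1* also lost it without either NR library or NRRA library 1, and the call of *Dnajc3* there was lost in 11 of the 16 alternatives. *Xbp1* had the most negative value of the ER genes in restricted medium, at -0.55, and *Hspa1a* the most negative of all 36, at -0.75.

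The interaction term tests the difference between the 2 media directly, as the log2 fold change of NRRA against NR minus that of RA against Veh. It was called for 3 of the 36 genes, all lower, while 6.58% of all genes were called lower and 6.37% higher. For *Hsp90b1* retinoic acid gave 0.035 in complete medium and -0.25 in restricted medium, with an interaction of -0.29 ± 0.070 (SE, adjusted p = 0.00549) that was kept in each alternative. For *Hspa1a* the values were 0.055 and -0.75, with an interaction of -0.80 ± 0.21 (SE, adjusted p = 0.0112) that was lost with DESeq2 (adjusted p = 0.0615) and without NRRA library 1 (0.0581). For *Dnajc3* they were 0.15 and -0.12, with an interaction of -0.27 ± 0.074 (SE, adjusted p = 0.0138) that was lost without RA library 1 (0.0611) and without either NRRA library (0.0721 and 0.0605). The count of interactions ran from 1 without NRRA library 1 to 7 without Veh library 2.

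**Figure D5:**
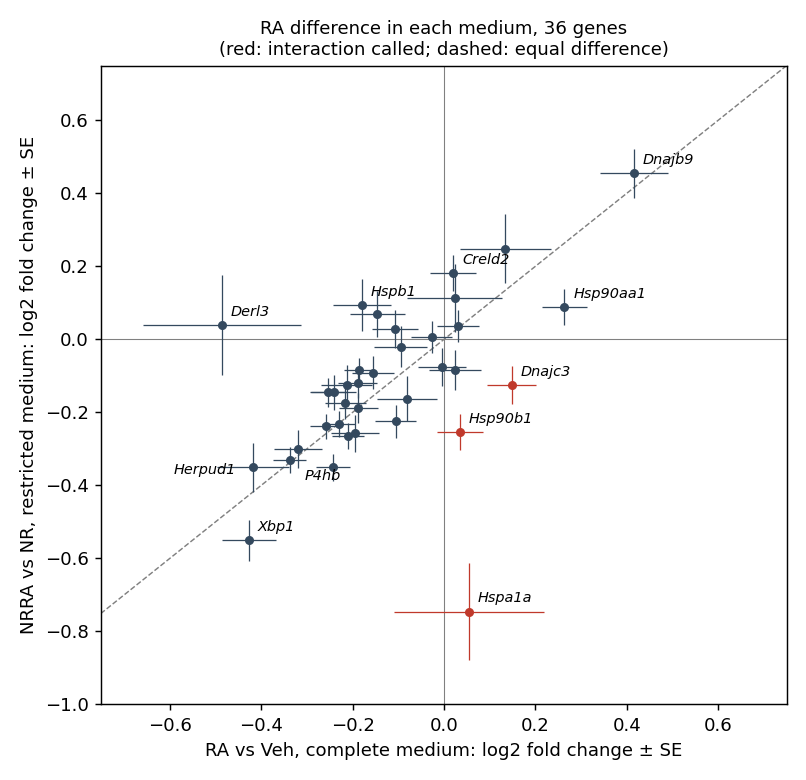
Log2 fold change with standard error for retinoic acid in complete medium (RA against Veh, horizontal) and in restricted medium (NRRA against NR, vertical) for the 36 genes, with the line of equal difference dashed and genes with a called interaction in red. Most genes lie in the lower left quadrant near the line, and *Hsp90b1*, *Dnajc3* and *Hspa1a* lie below it.

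Nutrient restriction was likewise compared with and without retinoic acid, again with no shared libraries. NRRA had 6 members higher and 9 lower than RA (20.9% and 19.4% of all genes, and 8.29% past 2-fold with 0 of the members), and the median was 0.011. In both NR against Veh (22 called) and NRRA against RA (15 called), 9 members were lower: *Ern1*, *Edem1*, *Hspa8*, *Hsph1*, *Hspb1*, *Hsp90aa1*, *Hsp90ab1*, *Hspd1* and *Hspe1*. In both, 5 were higher: *Dnajb9*, *Calr*, *Pdia3*, *Herpud1* and *Sel1l*. No member was called in opposite directions. Of all genes 13.8% were lower in both, 13.1% higher in both and 1.19% called in opposite directions. *Herpud1* differed by a log2 value of 0.62 ± 0.074 (SE, adjusted p = 1.09e-07) and *Sel1l* by 0.36 ± 0.045 (SE, adjusted p = 2.25e-07) between NRRA and RA. *Hspb1* differed by a log2 value of -0.81 ± 0.066 (SE, adjusted p = 8.25e-11) and *Ern1* by -0.43 ± 0.060 (SE, adjusted p = 1.35e-06). The calls of *Calr* and *Pdia3* in NRRA against RA were each lost with DESeq2, with RLE scaling and without RA library 2 or either NR or NRRA library.

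Of the 9 genes with an ER stress response element, 1 was higher and 4 lower in RA (19.8% and 23.4% of all genes), with a median of -0.027. In NR 3 were higher and 2 lower (21.7% and 22.2% of all genes), with a median of 0.097. In NRRA 2 were higher and 3 lower (30.1% and 28.7% of all genes), with a median of 0.028. In NRRA against NR 1 was higher and 5 lower (21.3% and 22.1% of all genes), with a median of -0.12.

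Other genes of the pathways, from lists drawn up by function, were counted in the same way against the same shares of all genes, and values in parentheses are log2 fold changes from Veh. Those shares were 19.8% higher and 23.4% lower in RA, 21.7% higher and 22.2% lower in NR, and 30.1% higher and 28.7% lower in NRRA. The third sensor arm, PERK (*Eif2ak3*) and the integrated stress response, had 14 genes. In RA 4 were higher and 5 lower, in NR 5 were higher and 2 lower, and in NRRA 5 were higher and 3 lower. *Nupr1*, a stress-induced transcriptional regulator, stood at 22.1 and 21.03 CPM with Veh, 45.7 and 40.4 after RA, 46.6 and 43.3 under NR and 44.6 and 42.7 under NRRA, with log2 fold changes of 0.99 ± 0.075 (SE, adjusted p = 4.88e-11), 1.06 ± 0.075 (SE, adjusted p = 7.16e-12) and 1.02 ± 0.074 (SE, adjusted p = 5.44e-12). All treated libraries lay above both Veh libraries, and the 3 treated groups overlapped one another. The interaction of *Nupr1* was -1.03 ± 0.100 (SE, adjusted p = 2.70e-08). *Ddit3* (CHOP) stood at 22.2 and 23.2 CPM with Veh, 22.2 and 21.9 after RA, 30.7 and 27.6 under NR and 34.8 and 33.6 under NRRA, and was higher by a log2 value of 0.36 ± 0.075 (SE, adjusted p = 0.000352) under NR and 0.59 ± 0.072 (SE, adjusted p = 9.00e-08) under NRRA. *Trib3*, an ATF4 and CHOP target, was called in NR only among the comparisons with Veh, at 0.55 ± 0.12 (SE, adjusted p = 0.000502), and its interaction was -0.79 ± 0.17 (SE, adjusted p = 0.00180). The log2 fold change of *Atf4* itself was -0.17 after RA, 0.17 under NR and -0.0051 under NRRA, called in RA and in NR but not in NRRA. *Cebpb* was lower in RA and NRRA (-0.54 and -0.44), *Ddit4* was lower in all 3 (-0.31, -0.37 and -0.68), *Atf3* was higher in RA and NRRA (0.48 and 0.44), and *Asns* was lower under NR (-0.14).

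Among 33 other tested genes of ER folding and export, 5 were higher and 13 lower in RA, 11 higher and 5 lower in NR, and 9 higher and 14 lower in NRRA. The ER peptidyl-prolyl isomerases *Fkbp7* and *Fkbp14* gave the highest called values in NR (0.88 and 0.53). At the low end were *Pdia5* (-0.52) and *Mydgf* (-0.27) in RA, *Mydgf* (-0.37) and the signal peptidase subunit *Spcs3* (-0.25) in NR, and the translocon subunit *Sec61b* (-0.50) and *Mydgf* (-0.41) in NRRA. *Spcs3* was among the highest in RA (0.42, with *Hspa13* at 0.46) and NRRA (0.66, with *Fkbp7* at 0.74). Among 24 other ERAD and signalling genes, 5 were higher and 10 lower in RA, 8 higher and 7 lower in NR, and 7 higher and 5 lower in NRRA. *Creb3l1*, an ER-anchored transcription factor that drives collagen secretion, rose past 2-fold under NR and NRRA, from 108 and 103 CPM with Veh to 245 and 257 under NR and 267 and 271 under NRRA, with log2 fold changes of 1.25 ± 0.049 (SE, adjusted p = 1.99e-17) and 1.35 ± 0.048 (SE, adjusted p = 1.85e-18). The fibroblast markers also rose in these 2 conditions, and their part in the *Creb3l1* values was not tested. The ERAD ubiquitin-conjugating enzyme *Ube2j1* was lowest in RA (-0.41, with *Selenos* at -0.32) and NRRA (-0.65, with the ATPase *Vcp* at -0.41), and in NR the lowest were *Wfs1* (-0.35) and *Vcp* (-0.27). *Fam8a1* (0.36) and *Mbtps2* (0.40) were the highest called in RA, *Erlec1* was second under NR (0.54) and *Edem3* second under NRRA (0.76).

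Among other cytosolic and mitochondrial chaperone genes, more were called lower than higher in each comparison with Veh. Of 29 other cytosolic chaperones and heat shock factors, 6 were higher and 17 lower in RA, 3 higher and 16 lower in NR, and 4 higher and 19 lower in NRRA, with medians of -0.17, -0.17 and -0.31. *Fkbp5*, an Hsp90 co-chaperone, had log2 fold changes of -0.62 ± 0.057 (SE, adjusted p = 1.57e-09) after RA, -0.62 ± 0.057 (SE, adjusted p = 1.09e-09) under NR and -0.87 ± 0.057 (SE, adjusted p = 5.65e-13) under NRRA. The small heat shock genes *Cryab* and *Hspb6* were low in different groups, *Cryab* under NR (-0.75) and NRRA (-0.91) and *Hspb6* after RA (-0.73). *Dnajb4* was higher in all 3 (0.42, 0.60 and 0.87), *Hspa4l*, an HSP110 relative, after RA (0.75), *Hsf2* under NR (0.27) and the testis Hsp70 gene *Hspa2* under NRRA (0.78). The chaperonin TRiC and its partner prefoldin, which fold actin and tubulin, had 12 of 14 genes lower and 1 higher in RA, 11 lower and 0 higher in NR, and 12 lower and 1 higher in NRRA, with medians of -0.26, -0.30 and -0.55. *Cct5* stood at 482 and 484 CPM with Veh, 385 and 377 after RA, 386 and 384 under NR and 283 and 297 under NRRA, and its log2 fold changes were -0.34 ± 0.039 (SE, adjusted p = 7.68e-08), -0.33 ± 0.039 (SE, adjusted p = 1.25e-07) and -0.74 ± 0.039 (SE, adjusted p = 9.50e-15). The RA and NR groups of *Cct5* overlapped, and both lay between Veh and NRRA. *Cct3* (-0.39) was the lowest in RA, the prefoldin subunits *Pfdn1* (-0.48) and *Pfdn2* (-0.42) were the lowest in NR, and *Cct2* (-0.69) was next to *Cct5* in NRRA, while the exception *Vbp1*, also a prefoldin subunit, was higher after RA (0.46) and NRRA (0.21). Of 13 other mitochondrial chaperones and proteases, 1 was higher and 7 lower in RA, 2 higher and 8 lower in NR, and 2 higher and 7 lower in NRRA. The mitochondrial Hsp70 *Hspa9* was lower in each (-0.28, -0.44 and -0.63), with *Trap1* (-0.25) in RA and the exchange factor *Grpel1* under NR (-0.44) and NRRA (-0.48). The protease *Yme1l1* was higher in all 3 (0.38, 0.34 and 0.42), and *Atf5*, a regulator of the mitochondrial unfolded protein response, was higher under NR (0.68) and NRRA (0.76).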

How the data were processed

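The deposited table held raw read counts per gene that the authors made from stranded, oligo dT selected mRNA libraries, and the submitters' processing notes name bcl2fastq, STAR 2.6.1c, featureCounts 1.6.4 and the mm10 build. The strand setting of the counting is not given in the sources used here. No other columns of samples were present. Genes passing edgeR's filterByExpr (20477 of 55421) were scaled by TMM and fitted in edgeR 4.0.16 (R 4.3.3) with the quasi-likelihood test, with 1 coefficient a condition and all 8 libraries in the fit (4 residual degrees of freedom). P-values were adjusted by Benjamini-Hochberg over all tested genes and genes were called under 0.05, with a second rule of at least 2-fold. The standard error is the log2 fold change divided by the square root of F. Intervals of counting were not needed, since 2 libraries a group set the error.

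The members and gene lists were chosen with earlier results of these data known. Members with full statistics are those past 2-fold, those with a called interaction and, per role group and comparison with Veh, up to 2 called with the highest and 2 with the lowest fold change. Other pathway lists are represented by the same extremes, and any other gene named with values was chosen after its values were seen. Exon lengths, gene overlaps and repeated read-length windows came from GENCODE M21 on GRCm38, which matched 55240 of 55421 genes, and promoter windows came from RefSeq. The scripts were tested on simulated counts. Alternatives were DESeq2 1.42.0, RLE, upper quartile and total-count scaling, no filter, only the groups compared, a replicate block, removal of GC and length trends, and leaving out each library.

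The counts of the 2 libraries of a condition differed by more than sampling noise in all 4 conditions (chi-square per gene 3.93 for Veh, 2.12 for RA, 1.58 for NR and 1.73 for NRRA), so each was counted as its own replicate.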

Additional observations from a re-analysis of the deposited data

Results flagged for a closer look

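The difference made by retinoic acid depended on the medium for 3 of the 36 genes, by the interaction term of the edgeR quasi-likelihood fit. All 3 were lower, while 6.58% of all genes were called lower and 6.37% higher by this term. For *Hsp90b1* the interaction was -0.29 on the log2 scale (SE 0.070, adjusted p = 0.00549): the mean was 634 CPM with Veh and 649 after RA in complete medium, and 796 under NR and 667 under NRRA in restricted medium. For *Dnajc3* it was -0.27 (SE 0.074, adjusted p = 0.0138), with means of 71.0 CPM with Veh, 78.7 after RA, 92.7 under NR and 84.95 under NRRA. For *Hspa1a* it was -0.80 (SE 0.21, adjusted p = 0.0112), with means of 4.43 CPM with Veh, 4.63 after RA, 8.26 under NR and 4.88 under NRRA. All 3 genes were higher in NR than in Veh and lower in NRRA than in NR. The near-identical *Hspa1b* was called higher in NRRA than in NR. Of the read-length windows of *Hspa1a*, 56.3% also occur elsewhere, chiefly in *Hspa1b*, so the *Hspa1a* values are uncertain to that extent. On the opposite strand, *Gm20481* overlaps 19.01% of the *Hspa1a* exons. The *Hsp90b1* interaction kept its call in each alternative run for it, and 10.3% of its exons overlap *1810014B01Rik* on the opposite strand. That of *Hspa1a* was lost with DESeq2 (adjusted p = 0.0615) and without NRRA library 1 (0.0581), and that of *Dnajc3* without RA library 1 (0.0611) and without either NRRA library (0.0721 and 0.0605).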

How the results depend on the processing

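Most calls rest on differences well under 2-fold from 2 libraries a group, and low genes such as *Derl3* and *Hspa1a* are limited by their counts. DESeq2 gave 3 members higher in NRRA than in Veh and 1 past 2-fold, and RLE scaling and the fit of only the groups compared also gave 1 past 2-fold there. Scaling by library totals alone gave 5 higher and 12 lower in RA, 14 higher in NR, 11 higher in NRRA, and 6 higher and 13 lower in NRRA against NR. The same scaling moved the all-gene median log2 fold change from 0.0057 to 0.038 in NR and from 0.0056 to 0.087 in NRRA against NR. It moved the share of higher calls over all genes in NRRA against NR from 49.0% to 63.8%. Removal of GC and length trends gave 0 past 2-fold in NR and 8 higher in NRRA, and of the alternatives run it alone turned the direction of a value that was called before or after the change: *Hsp90b1* to -0.16 in RA and -0.16 in NRRA, *Dnajc3* to -0.0067 in RA, *Syvn1* to 0.13 in RA, and *Canx* to -0.078 in NR, -0.18 in NRRA and -0.099 in NRRA against NR (the cause was not tested). Values called under neither setting changed sign under other alternatives as well.

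Leaving out each library in turn gave ranges of 2 to 4 members higher and 17 to 20 lower for RA, 7 to 13 and 10 to 13 for NR, 3 to 5 and 18 to 21 for NRRA, 1 to 4 and 13 to 22 in NRRA against NR, and 4 to 7 and 9 to 12 in NRRA against RA. Members past 2-fold ran from 1 to 2 in NR, 0 to 1 in NRRA and 0 to 1 in NRRA against RA, and interactions from 1 to 7. The libraries that decided these were NRRA 2 for NRRA higher (3), NR 1 or NR 2 for NRRA against NR higher (1), NRRA 2 for NRRA against NR lower (13), Veh 2 or NR 2 for NR past 2-fold (2), Veh 2 or NRRA 2 for NRRA past 2-fold (1), RA 2 for NRRA against RA past 2-fold (1), and NRRA 1 (1) and Veh 2 (7) for interactions. Without NR 1 or NR 2 the share of higher calls among all interactions was 37.5% or 38.0%, against 49.2%.

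The replicate numbers did not pair the libraries (correlations of deviations from -0.033 to 0.0225). With a replicate block no count of members moved by over 1.5 times, with 3 higher and 20 lower for RA, 8 and 13 for NR and 5 and 20 for NRRA, and only *Derl2* in NR and *Dnajc3* in NRRA against NR lost their calls (adjusted p = 0.0559 and 0.0567).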
